A study of Mus musculus with 6 samples.

Results

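Genes of antioxidant defence were followed across mouse embryonic stem cells in which the histone methyltransferase gene Ezh2 was to be deleted: the glutathione peroxidases Gpx1, Gpx3, Gpx4, Gpx7 and Gpx8, the reductases Gsr and Txnrd1, and Nfe2l2, Nqo1 and Hmox1 of the Nrf2 response. They are 10 of the 22933 genes in the deposited table, taken by symbol through their Ensembl identifiers. The members were selected on function with the tamoxifen-against-untreated values of this same table already known. Their fold changes and adjusted p-values are therefore a description and support nothing beyond it. All 6 libraries came from cells of the Ezh2 fl/fl line grown on gelatin with 1000 U/ml leukaemia inhibitory factor, 10% fetal calf serum, 5% knockout serum replacement and the reducing agent 2-mercaptoethanol. In the tamoxifen group (n = 3 libraries, labelled Ezh2 KO) the cells received 4-hydroxy-tamoxifen at 800 nM for 96 h, and RNA was taken at 4 days. The untreated group (n = 3, labelled Ezh2 wild type, with the floxed alleles still present) had no tamoxifen. The labels name neither the recombinase nor a vehicle given to the untreated cells, and they do not say whether replicates were separate cultures. An effect of the drug and an effect of the deletion cannot be told apart in this design.

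Glutathione peroxidases reduce hydrogen peroxide and lipid hydroperoxides, most of them with electrons from glutathione. Gsr encodes glutathione reductase, which regenerates glutathione with NADPH, and Txnrd1 encodes the cytosolic thioredoxin reductase, which does the same for thioredoxin. Nfe2l2 encodes Nrf2, a transcription factor that Keap1 holds at a low level until oxidants or electrophiles release it. Nqo1, Hmox1, Txnrd1, Gsr and several other genes of glutathione and NADPH metabolism are classical Nrf2 targets.

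The peroxidases differ in the codon of the catalytic residue. It is TGA, read as selenocysteine, in Gpx1, Gpx3 and Gpx4, and a cysteine codon in Gpx7 and Gpx8. Txnrd1 also carries a TGA codon, close to the end of its reading frame. The fragments are shown because this codon divides the peroxidases by a feature other than their RNA level. Each runs 5′ to 3′ in the coding direction with the codon in capitals, as in GENCODE vM21 on GRCm38:
Gpx1: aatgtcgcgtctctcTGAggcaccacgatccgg
Gpx3: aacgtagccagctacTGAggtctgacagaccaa
Gpx4: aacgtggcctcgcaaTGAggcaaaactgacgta
Gpx7: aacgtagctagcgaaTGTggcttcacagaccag
Gpx8: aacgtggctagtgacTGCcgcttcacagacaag
Txnrd1: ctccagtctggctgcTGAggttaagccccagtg
The codon lies at chr9:108339451-108339453 for Gpx1, chr11:54907256-54907258 for Gpx3, chr10:80054737-80054739 for Gpx4 and chr10:82896037-82896039 for Txnrd1, all on the plus strand. It lies at chr4:108403430-108403432 for Gpx7 and chr13:113045661-113045663 for Gpx8, on the minus strand. In the annotation 4 members hold a selenocysteine and 6 do not. The members without a fragment lie at chr8:33652523-33698163 (Gsr), chr8:107388225-107403206 (Nqo1), chr8:75093621-75100589 (Hmox1) and chr2:75675513-75704641 (Nfe2l2).

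The depth was 2334448 to 5110226 recovered reads in the tamoxifen libraries and 2678212 to 5689666 in the untreated libraries, a recovered read being the whole-number count that can be solved from each deposited value. Ezh2 averaged 2475 ± 190 in tamoxifen and 3756 ± 361 in untreated libraries (normalized values, SD, n = 3 each), and its groups did not overlap on that scale. Its log2 change was -0.60 (limma adjusted p 0.195, not called), and -0.13 on reads per 1000000 recovered reads (CPM). With median-of-ratios scaling of the recovered reads it was -0.40. On CPM the Ezh2 groups overlapped, at 72.0, 123 and 102 with tamoxifen and 180, 97.9 and 67.6 untreated. How complete the deletion was is not measured by the table. In bulk RNA of this kind, fewer cells expressing a gene and less RNA per cell cannot be told apart. Markers of pluripotent stem cells were present in every library, with a summed value over 6 genes of 56398 to 59382 in tamoxifen and 50379 to 73538 in untreated libraries. Within the sum, Nanog was higher with tamoxifen (log2 difference 0.57, limma adjusted p 0.357) and Zfp42 lower (-0.26, limma adjusted p 0.551). Each was without overlap, as were 7.92% of all genes tested in the higher and 7.33% in the lower direction. The other markers overlapped.

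Gpx3 stood apart from the other members. The log2 fold changes of the 9 members with reads ran from -0.38 for Gpx7 to 1.45 for Gpx3, with a median of 0.23, against a median of -0.0037 over all 17427 genes tested. With limma and Benjamini-Hochberg adjustment over all genes, 0 members passed 0.05, where 0.195% of all genes did (0.126% higher and 0.0689% lower with tamoxifen). At an unadjusted p under 0.05 there were 2 members, Gpx3 and Gpx7, and such genes made up 9.34% of those tested. The same 2 members had groups that did not overlap, Gpx3 with tamoxifen higher (7.92% of all genes) and Gpx7 with tamoxifen lower (7.33%). When only the 11843 genes with at least 10 recovered reads on average were tested, 1 member was called, Gpx3, at a limma adjusted p of 0.0485, and 0.127% of genes were called (0.11% higher and 0.0169% lower).

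**Figure D1:**
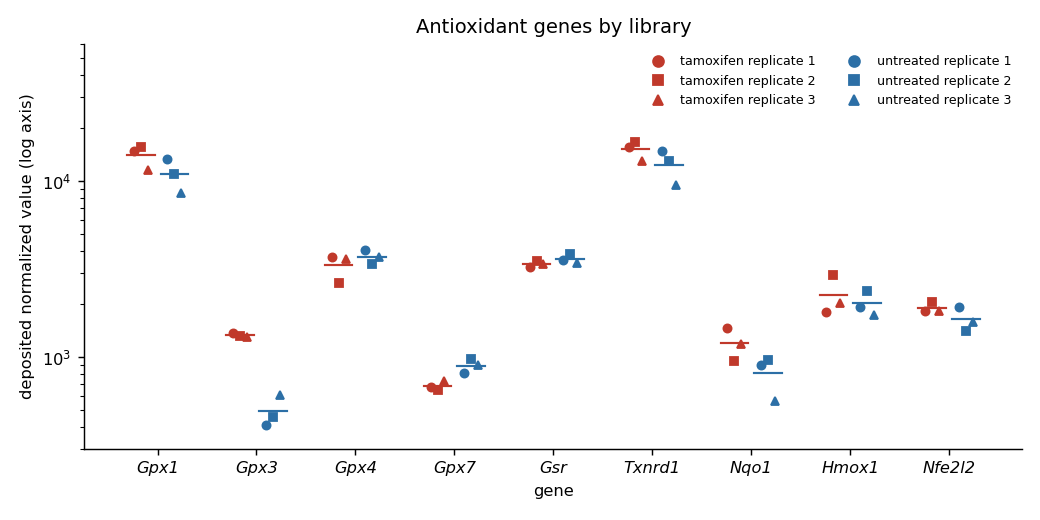
Deposited normalized value of the 9 members with reads, on a log axis, in each tamoxifen (red) and untreated (blue) library, with marker shape for the replicate and a bar for the mean of 3. The 3 tamoxifen points of Gpx3 lie at 1294 to 1361, above all untreated points, while most other genes overlap between groups.

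Gpx3 encodes the secreted glutathione peroxidase of blood plasma. Its normalized values were 1361, 1321 and 1294 in tamoxifen replicates 1 to 3, against 407, 457 and 610 in untreated replicates 1 to 3. Every untreated library lay below every tamoxifen library. The tamoxifen values differed by an SD of 2.54% of their mean. That was less than the counting error of 10.4% to 15.6% of the reads recovered behind them. Their closeness is therefore not a measure of how alike the libraries were. The SE, interval and p-values of Gpx3 on deposited values rest in part on that closeness and may be too small. The step that produced the main whole-number term of each deposited value is not given in the sources used here.
The mean was 1325 ± 33.6 in tamoxifen and 491 ± 106 in untreated libraries (SD, n = 3 each), a log2 difference of 1.45 ± 0.18 (SE), 95% interval 1.02 to 1.88, limma adjusted p 0.0578. Behind these values were 52, 41 and 92 recovered reads in the tamoxifen libraries and 15, 27 and 14 in the untreated libraries. The reads of tamoxifen replicate 3 were the most and those of untreated replicate 3 the fewest. Scaled to the library total, the mean was 16.4 ± 2.48 CPM with tamoxifen and 4.62 ± 0.677 CPM untreated (SD, n = 3 each), again with no overlap. The share of all genes without overlap was not counted on CPM. On CPM the log2 difference was 1.62 ± 0.38 (SE, limma adjusted p 0.206), and with median-of-ratios scaling of the reads the limma adjusted p was 0.211. The 2 groups of 3 allow no two-sided exact permutation p below 0.1, whatever the size of the difference. With 1 library left out and no filter on reads, Gpx3 passed 0.05 only without untreated replicate 3, at 1.62 (limma adjusted p 0.0297). It also passed with every library kept once the filter on reads was applied (limma adjusted p 0.0485). Among genes with at least 10 reads on average, leaving out any 1 library lost the call (limma adjusted p 0.101 to 0.403). The gene (ENSMUSG00000018339) lies at chr11:54902453-54910377 on the plus strand of GRCm38.

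Gpx1 encodes the cytosolic peroxidase found in nearly all cells, and it was the most abundant member. Its normalized values were 14771, 15627 and 11463 in tamoxifen replicates 1 to 3 and 13331, 10997 and 8560 in untreated replicates 1 to 3. The groups overlapped, since tamoxifen replicate 3 lay below untreated replicate 1. On the log2 scale the difference was 0.36 (95% interval -0.14 to 0.86, limma adjusted p 0.652), and 0.19 without untreated replicate 3.

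Gpx4, the peroxidase that acts on phospholipid hydroperoxides within membranes and guards against ferroptosis, also overlapped. It had normalized values of 3716, 2635 and 3610 with tamoxifen, against 4067, 3367 and 3675 untreated. Only tamoxifen replicate 2 lay below every untreated library. The log2 difference was -0.17 (95% interval -0.57 to 0.23, limma adjusted p 0.768), and -0.012 without tamoxifen replicate 2. Reads of Gpx4 are uncertain, because the pseudogene Gpx4-ps2 matches its transcript at 99.7% identity over 733 bases and the sources used here do not say how such reads were counted.

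Gpx7 and Gpx8 encode peroxidases of the endoplasmic reticulum, where they take part in oxidative protein folding. Gpx7 was lower in all 3 tamoxifen libraries, at 670, 650 and 730, against 807, 973 and 893 in the untreated libraries. The gap between the groups, from 730 to 807, was narrow beside the spread within the untreated group. Mean Gpx7 was 683 ± 41.4 with tamoxifen and 891 ± 83.0 untreated (SD, n = 3 each), or -0.38 ± 0.13 in log2 units (SE, limma adjusted p 0.493), on 22 to 82 recovered reads. On CPM the groups overlapped, at 7.27, 9.42 and 11.3 with tamoxifen and 11.7, 14.4 and 8.96 untreated. Gpx8 is listed at 0 in all 6 libraries. The NADPH-supplying gene G6pdx, which nearly every cell uses, is listed at 0 as well, so the entry for Gpx8 says nothing firm about its RNA. It could not be tested.

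The share of Gpx3 within the family does not depend on how libraries are scaled. Of the recovered reads of Gpx1, Gpx3, Gpx4 and Gpx7 together, Gpx3 made up 6.74%, 6.37% and 7.58% in tamoxifen replicates 1 to 3, against 1.86%, 1.53% and 4.58% in untreated replicates 1 to 3. The groups did not overlap, but untreated replicate 3 stood well above the other two untreated libraries. There Gpx3 rested on 14 of 306 family reads, with an exact (Clopper-Pearson) 95% binomial interval from 2.52% to 7.56% that reaches into the tamoxifen range and covers counting error only. The Gpx1 share was lowest in the same library, at 57.8%. Gpx1 took 66.0% to 77.3% of the family reads with tamoxifen and 57.8% to 76.7% untreated. For Gpx4 the shares were 12.9% to 21.7% with tamoxifen and 17.1% to 29.7% untreated. For Gpx7 they were 3.42% to 4.78% with tamoxifen and 4.65% to 7.84% untreated, so that all 3 of these genes overlapped.

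**Figure D2:**
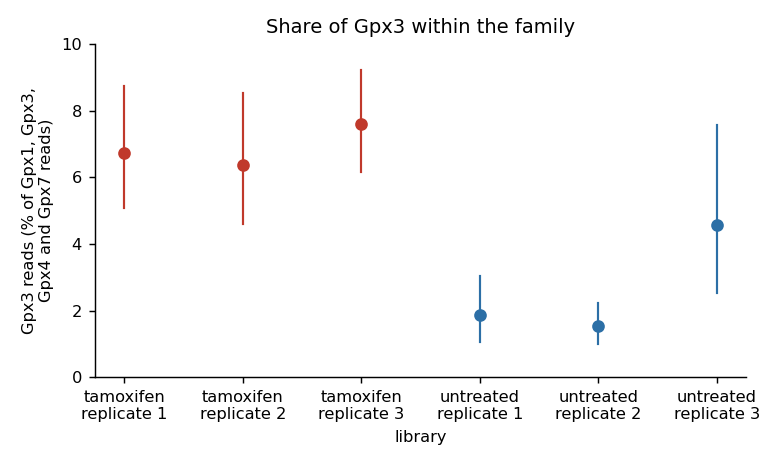
Recovered reads of Gpx3 as a percentage of the reads of Gpx1, Gpx3, Gpx4 and Gpx7 in each library, with exact 95% binomial intervals for counting error. Tamoxifen libraries (red) lie at 6.37% to 7.58% and untreated libraries (blue) at 1.53% to 4.58%.

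For both reductases the groups overlapped. Gsr had normalized values of 3231, 3513 and 3387 in tamoxifen and 3572, 3815 and 3425 in untreated libraries. Tamoxifen replicates 1 and 3 lay below all untreated libraries and tamoxifen replicate 2 among them. The difference was -0.093 in log2 units (95% interval -0.32 to 0.13, the narrowest among the 9 members, limma adjusted p 0.769). It was 0.0034 on CPM. Txnrd1 had normalized values of 15629, 16718 and 12924 with tamoxifen and 14792, 12924 and 9419 untreated. As for Gpx1, tamoxifen replicate 3 and untreated replicate 3 were the lowest of their groups. For Txnrd1 the log2 difference was 0.30 (95% interval -0.18 to 0.79, limma adjusted p 0.706). It was 0.12 without untreated replicate 3, and it stood at -0.0072 with the reads scaled by median-of-ratios factors.

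On deposited values Nfe2l2, Nqo1 and Hmox1 also overlapped between groups. Nfe2l2 had normalized values of 1830, 2043 and 1810 in tamoxifen and 1917, 1402 and 1576 in untreated libraries. Only untreated replicate 1 reached the tamoxifen range. This gave a log2 difference of 0.23 (95% interval -0.13 to 0.58, limma adjusted p 0.693), and 0.12 without untreated replicate 2.
Nqo1, whose enzyme reduces quinones with NADH or NADPH, had the second largest positive change among the members. Its values were 1460, 944 and 1178 with tamoxifen and 895, 954 and 563 untreated. Untreated replicate 3 was low and tamoxifen replicate 1 high, and tamoxifen replicate 2 fell inside the untreated range. The log2 difference was 0.58 ± 0.26 (SE), 95% interval -0.050 to 1.22 (limma adjusted p 0.551), and 0.35 without untreated replicate 3. Nqo1 stood at 29.6 to 34.4 CPM with tamoxifen and at 10.1 to 26.0 CPM untreated, without overlap on that scale. On CPM the median log2 change of all genes was 0.18, and the share of all genes without overlap was not counted.
Hmox1, which encodes the inducible haem oxygenase, had normalized values of 1799, 2909 and 2024 with tamoxifen, against 1926, 2375 and 1730 untreated. Tamoxifen replicate 2 was the highest of the 6 libraries, and the groups overlapped. Its log2 difference was 0.14 (95% interval -0.38 to 0.66, limma adjusted p 0.840), and -0.062 without tamoxifen replicate 2.

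**Figure D3:**
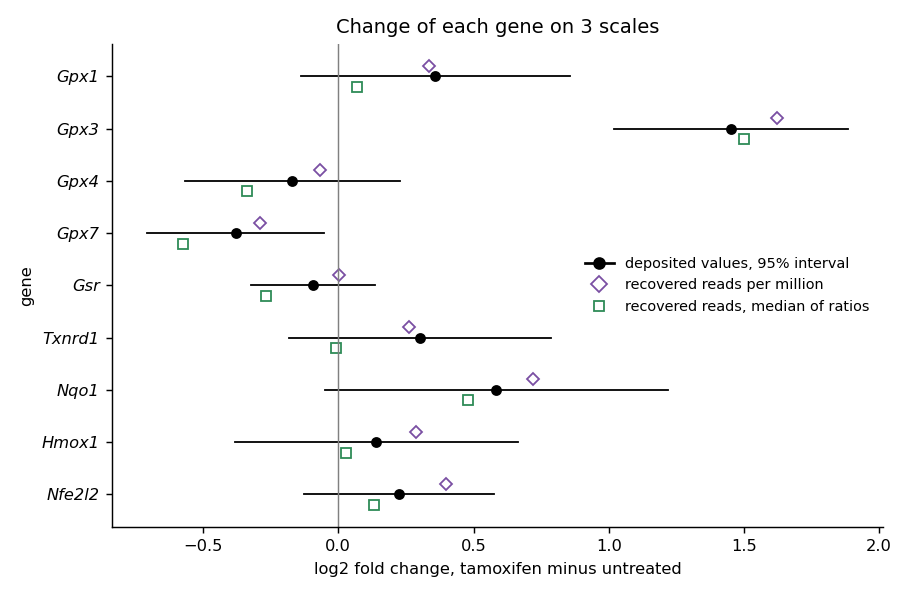
Log2 fold change, tamoxifen minus untreated, of the 9 members on deposited values (black, with 95% interval), on CPM of recovered reads (violet diamonds) and on recovered reads scaled by median-of-ratios factors (green squares). Gpx3 lies at 1.45 to 1.62 on all 3 scales, and the other 8 lie between -0.57 and 0.72.

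The direction of several small changes depended on the scaling. On deposited values 6 members were higher and 3 lower with tamoxifen, on CPM 7 and 2, and on median-of-ratios reads 5 and 4. Scaling to library totals moved the median of all genes to 0.18 on the log2 scale, so changes on that scale read high. Relative to that median, Gpx3 stood at 1.44, Nqo1 at 0.54, Gpx7 at -0.47 and Gsr at -0.18.

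Levels of different members were compared per length, as recovered reads per kilobase of merged exons and 1000000 recovered reads (RPKM). Gpx1 came first, with a mean over the 6 libraries of 111 ± 42.0 (SD). Txnrd1 followed at 53.1 ± 12.9 and Gsr at 42.5 ± 10.1, and over merged exons each of these 3 lay above the next in the order in all 6 libraries. Gpx4 had a mean level of 25.3 ± 4.71 and was above Hmox1 in 5 of 6 libraries. The middle of the order was not resolved. Hmox1 (21.1 ± 8.30), Nqo1 (16.9 ± 5.56) and Nfe2l2 (15.1 ± 4.53) differed by less than their spread, Hmox1 lying above Nqo1 in 4 of 6 libraries and Nqo1 above Nfe2l2 in 3 of 6.
Gpx7 and Gpx3 were the lowest members with reads and changed places between the groups. Gpx3 stood at 7.45, 9.69 and 9.93 RPKM in the tamoxifen libraries, above Gpx7 at 5.64, 7.31 and 8.81 in the same libraries. In the untreated libraries Gpx3 stood at 2.15, 2.62 and 2.88, below Gpx7 at 9.06, 11.2 and 6.95. Over the longest transcript in place of merged exons, part of the order changed: Gpx4 (43.9) and Gsr (43.8) had like means, and Nfe2l2 (23.2) stood above Nqo1 (16.9). Txnrd1 stood at 104 and Gpx1, still first, at 149.

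**Figure D4:**
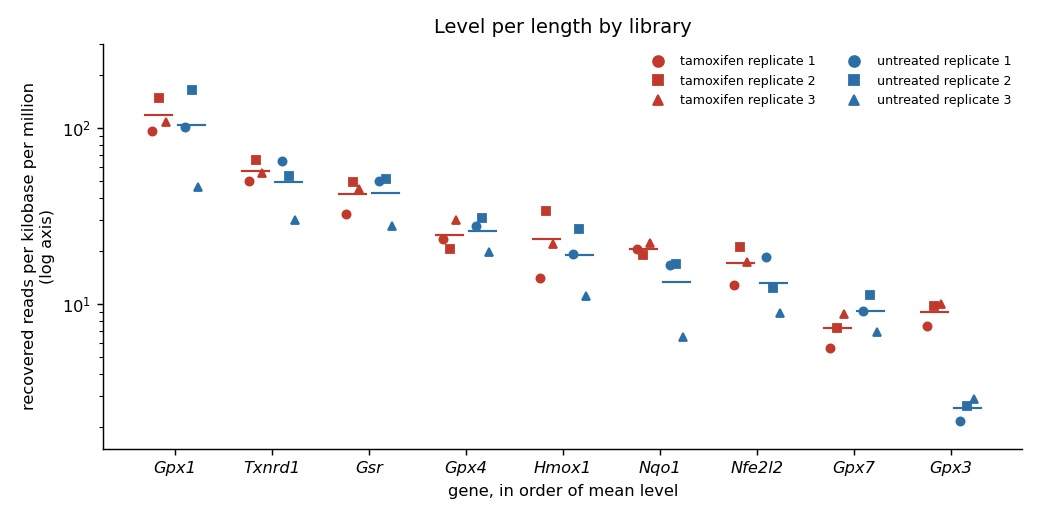
RPKM of recovered reads over merged exons, on a log axis, for the 9 members with reads in order of their mean, by library (tamoxifen red, untreated blue, bar for the mean of 3). Gpx1 leads at 111 on average, and the untreated points of Gpx3 are the lowest, at 2.15 to 2.88.

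Other genes of the antioxidant system differed in direction. From 11 lists of other genes of the pathway, 85 of 86 symbols matched the table and 82 genes were tested. None was called by limma, in this fit or among genes with at least 10 recovered reads on average, and 13 had an unadjusted p under 0.05 (15.9%, against 9.34% of all genes tested). On deposited values 39 stood higher and 43 lower with tamoxifen, around a log2 median of -0.0044. The split depended on scaling: 55 were higher and 27 lower on CPM, where the median of all genes was 0.18, and 31 were higher and 51 lower with median-of-ratios scaling. The groups did not overlap for 20 of the 82 (24.4%, against 15.3% of all genes tested), 10 in each direction. Of the 82, 75 averaged at least 10 recovered reads, beside 11843 such genes in the table and 17427 genes tested. The shares over all genes therefore cover more genes with few reads than the lists do, and are not a matched comparison.

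Among regulators of Nrf2, 4 of 8 were higher on deposited values (median log2 difference 0.063) and 7 of 8 on CPM. Bach1, a repressor of Hmox1, stood at 0.55 (limma adjusted p 0.626) and the small Maf partner Mafk at 0.27 (0.749). The list of glutathione synthesis and cystine uptake also holds genes of glutathione breakdown. Of its genes, 5 of 7 were lower on deposited values (median -0.35) and 4 of 7 on CPM. The synthesis genes Gclc, Gclm and Gss stood at 0.16, -0.10 and 0.13, with overlapping groups. Chac1, an enzyme that degrades glutathione, had normalized values of 1710, 1008 and 1507 with tamoxifen against 2587, 2617 and 2818 untreated. The groups did not overlap (log2 difference -0.96, limma adjusted p 0.245). Slc3a2, the heavy chain of the cystine transporter, stood at -0.35 (limma adjusted p 0.608).

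In the transferase and glutaredoxin list, 6 of 12 genes were higher on deposited values (median 0.020) and 8 of 12 on CPM. Gsta4, whose product conjugates lipid-peroxidation aldehydes to glutathione, had values of 3873, 4048 and 3932 with tamoxifen and 5820, 7095 and 5390 untreated. All tamoxifen libraries were lower (log2 difference -0.62, limma adjusted p 0.213). Glrx stood at 0.88 on 10 reads on average (limma adjusted p 0.526). Thioredoxin and peroxiredoxin genes were higher for 5 of 12 on deposited values (median -0.13) and for 7 of 12 on CPM. Srxn1, the sulfiredoxin that repairs overoxidized peroxiredoxins and a classical Nrf2 target, had values of 4047, 3413 and 3298 with tamoxifen, above 2548, 2598 and 2594 untreated. Srxn1 stood at 0.47 (limma adjusted p 0.298), and mitochondrial thioredoxin, Txn2, stood at 0.42 (0.497).

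Superoxide dismutase and catalase genes were higher for 1 of 3 tested on deposited values (median -0.17) and on CPM, and for 0 of 3 with median-of-ratios scaling, with Sod1 at -0.17 and Sod2 at -0.23 (limma adjusted p 0.725 and 0.687), and Sod3 is listed at 0. The NADPH list had 3 of 7 higher on deposited values (median -0.19) and 4 of 7 on CPM, with Me1, the cytosolic malic enzyme, at 0.77 and Idh1 at 0.42 (limma adjusted p 0.403 and 0.439), neither overlapping between groups. Haem and iron genes had 4 of 7 higher on deposited values (median 0.047), 6 of 7 on CPM and 3 of 7 with median-of-ratios scaling. The iron exporter Slc40a1 stood at 1.09 on 11.5 reads on average and the biliverdin reductase Blvrb at -0.29 (limma adjusted p 0.511 and 0.610), the last at 0.020 on CPM.

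Selenoprotein genes were looked at because Gpx1, Gpx3, Gpx4 and Txnrd1 need the same machinery. All 7 genes of selenocysteine incorporation stood below 0 on deposited values (median -0.16), and 6 of 7 with median-of-ratios scaling (median -0.21). On CPM 4 of the 7 stood above 0, with a median of 0.054 against 0.18 for all genes. None was called. Trnau1ap stood at -0.32 and Sephs2 at -0.12 (limma adjusted p 0.552 and 0.738), and Sephs2 at -0.0076 on CPM. Of 12 other selenoproteins 10 were higher on deposited values (median 0.13), 10 on CPM and 8 with median-of-ratios scaling. Selenon, a selenoprotein of the endoplasmic reticulum, had values of 766, 833 and 807 with tamoxifen and 543, 485 and 608 untreated, without overlap (log2 difference 0.56, limma adjusted p 0.321). Selenow stood at 0.23 (limma adjusted p 0.648). The remaining peroxidases gave no usable comparison, since Gpx2 is listed at 0, Gpx5 had values above 0 in only 1 library of each group, and Gpx6 had 3.33 recovered reads on average. Antioxidant genes known as p53 targets were higher for 3 of 5 on deposited values (median 0.14) and 5 of 5 on CPM. With median-of-ratios scaling 3 of 5 were higher (median 0.032). Aldh4a1 stood at 0.70 (limma adjusted p 0.305) and Tigar at 0.14 (0.721).

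**Figure D5:**
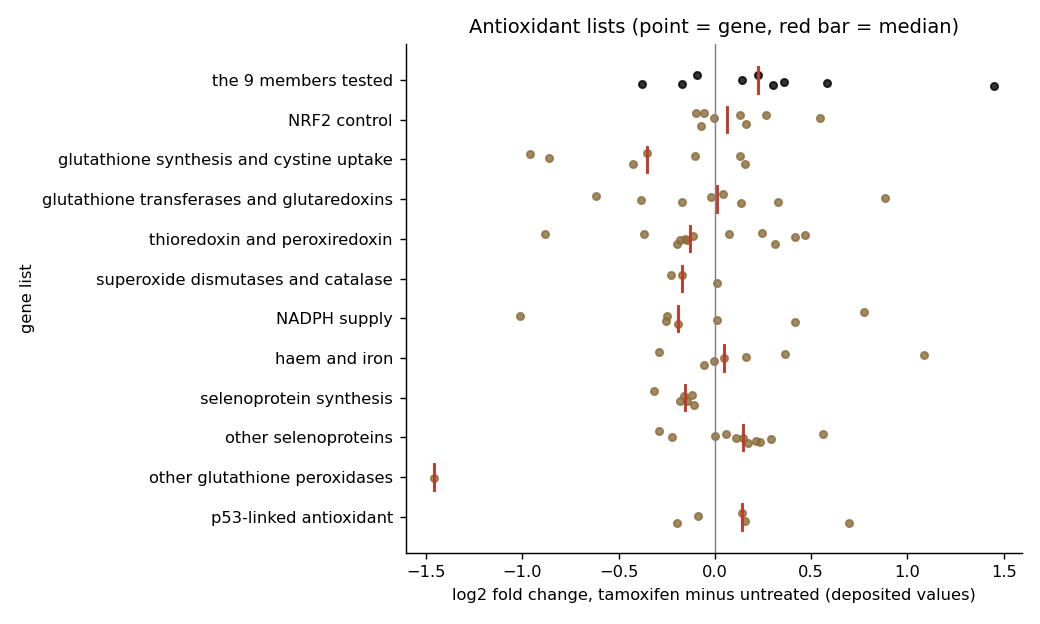
Log2 fold change on deposited values, tamoxifen minus untreated, of the 9 members (black) and of genes with at least 10 recovered reads on average in the 11 other antioxidant lists (brown), 1 point per gene with the median as a red bar. The members range from -0.38 to 1.45 and the list medians with more than 1 gene from -0.35 to 0.15.

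The genes whose profile over the 6 libraries came closest to that of Gpx3 were Baiap2, Mdm2, Abcb1b, Ptpn14 and Slc13a5. Likeness was the root mean square difference of log2 values centred on each gene's mean, among 11842 other genes with at least 10 recovered reads on average. It was 0.15 for Baiap2 and 0.17 for each of the other 4. Baiap2, which encodes an adaptor of the actin cytoskeleton, had normalized values of 1362, 1741 and 1674 with tamoxifen and 477, 487 and 758 untreated. Like Gpx3, it was highest among the untreated libraries in replicate 3. The log2 differences of the 5 ran from 1.35 for Ptpn14 to 1.61 for Slc13a5, with Mdm2 at 1.39. The 5 were picked for likeness to Gpx3 over these same libraries, so their like changes and replicate patterns follow from the pick. None of the other members, all with smaller changes than Gpx3, was among the 5.

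Summed markers of endoderm and of trophoblast were higher in the tamoxifen group, as Gpx3 was, while those of fibroblasts overlapped. Over 8 genes of primitive and visceral endoderm the summed value was 18088 to 21241 in tamoxifen and 7999 to 11043 in untreated libraries, with 7 of 8 higher, 6 without overlap (7.92% of all genes tested were higher without overlap) and 0 called. Most of that sum came from Lamb1 (mean 11460.5 with tamoxifen, 5949 untreated) and Col4a1 (6261 and 2637). The defining factors Gata4 and Gata6 were above 0 in every library. Afp and Ttr overlapped between groups, on 1.83 and 1.67 recovered reads on average. Over 6 trophoblast genes the sum was 7376 to 8514 with tamoxifen and 3550 to 5565 untreated. Most of it came from the keratins Krt18 (mean 4984 with tamoxifen, 2726 untreated) and Krt8 (2149 and 1309). Cdx2 and Eomes overlapped between groups. Hand1, on 4.17 recovered reads on average, is at 0 in 2 of 3 untreated libraries, and Elf5 is at 0 in 5 of 6 libraries overall. Over 6 fibroblast genes the sum was 615 to 1134 with tamoxifen and 540 to 968 untreated, with 3 of 5 tested genes higher and 2 lower. Postn is at 0 in every untreated library but had only 0.833 recovered reads on average. Col3a1, on 1.5 reads on average, and Thy1 stood lower with tamoxifen, at -3.78 and -0.26. The part of these cell types in the result for Gpx3 was not tested.

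RefSeq promoter windows on GRCm38.p6, from 250 bases before to 50 after a start, were found for 8 members, 13 windows in all. The core of the antioxidant response element to which Nrf2 binds, TGACNNNGC on either strand, occurred in 2 of the 13 and in 12.4% of all 32851 windows. No window of Gpx3, Gpx1 or Nqo1 held these letters, which says only that they are not in that stretch. The matches, in capitals, are shown with their flanks as the places where the motif of this pathway was found, at chr10:82859099-82859137 on the plus strand for Txnrd1 and chr2:75704880-75704913 on the minus strand for Nfe2l2:
Txnrd1: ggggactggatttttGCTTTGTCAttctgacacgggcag
Nfe2l2: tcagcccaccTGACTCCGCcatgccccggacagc
The capitals for Txnrd1 are the reverse complement of the motif. RNA levels do not show whether either place is bound.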

How the data were processed

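RNA depleted of ribosomal RNA was sequenced from 3 tamoxifen and 3 untreated libraries. The authors deposited a normalized signal per Ensembl gene and library, and the submitters' processing notes name TopHat2, bedtools, DESeq2 and mm9 without versions or roles. Annotation, strand setting and counting rule are not given in the sources used here. Each value above 0 equals a constant × k × (m + 0.1) / (k + 0.1) with whole k and m, so it follows m, whose origin is not given in the sources used here. The number k was solved and taken as the recovered read count, with exactly 1 solution for 98.8% of 100305 values (largest relative misfit 5.11e-15). Each p-value rests on the spread of the values between libraries, which may be technical only. For Gpx3 that spread was below counting error in the tamoxifen group, so its p-values on deposited values do not measure it well.

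log2(value + 1) was tested with limma 3.58.1 (R 4.3.3, trend) over the 17427 genes averaging 10 or more, with Benjamini-Hochberg adjustment over all of them. Adding 1 understates the change of low genes. The recovery was tried on values simulated with the same formula, which cannot show that k is the read count. The limma test was tried on simulated reads multiplied by the observed ratio of value to read. Neither trial bears on the origin of m. Members and lists were chosen with earlier results of these data known. Named genes are all members, up to 2 genes of smallest p per list with at least 10 reads on average, and the 5 genes nearest to Gpx3. Genes named beyond that rule were Hand1, Cdx2, Eomes, Elf5, Postn, Col3a1, Thy1, Gata4, Gata6, Afp, Ttr, G6pdx, Sod3, Gclc, Gclm, Gss, Gpx2 and Gpx6, chosen after their values were seen. Symbols and exons came from GENCODE vM21, by identifier only, since the files' build differs. In it no exon of a member overlaps another gene's exon. Copies were sought with BLAST 2.17.0 (at least 95% identity over 200 bases), and Python 3.11.15 was used for the rest. Alternatives were another pseudocount, other filters, 2 scalings of recovered reads, a replicate block, and each library left out.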

Additional observations from a re-analysis of the deposited data

How the results depend on the processing

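The number of genes called, 34 in all, was sensitive to every alternative run. It was 52 with a pseudocount of 10 and 52 with no filter on low values. It was 15 among genes with at least 10 recovered reads on average, 0 on CPM of recovered reads (8 among genes with at least 10 reads) and 4 with median-of-ratios scaling. With 1 library left out it was 66 to 103, or 0 to 1 among genes with at least 10 reads. The cause was not tested. Same-numbered replicates did not deviate together (correlations -0.0072, -0.049 and 0.0048 over 11843 genes). With a replicate block 0 genes were called, also among genes with at least 10 reads, and Gpx3 stood at 1.45 with adjusted p 0.447. These combinations with the read filter were added after seeing the data.

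Gpx3 kept its direction in all alternatives run, from 1.33 to 1.62 with 1 library left out. As the 1 member called, it passed the threshold at 1.45 among genes with at least 10 reads (adjusted p 0.0485) and at 1.62 without untreated replicate 3 (0.0297). Among genes with at least 10 reads it lost the call whenever any 1 library was left out (adjusted p 0.101 to 0.403). Of the members never called, 3 changed sign. Gsr was 0.0034 on CPM, Txnrd1 was -0.0072 with median-of-ratios scaling, and Hmox1 ranged from -0.062 to 0.28 with 1 library left out. Gpx1, Gpx4, Gpx7, Nqo1, Nfe2l2 and Ezh2 kept sign and side of the threshold, and no pathway gene was called in any fit. Over the longest transcript instead of merged exons, mean levels moved to 43.9 for Gpx4, 104 for Txnrd1 and 23.2 for Nfe2l2, which changed part of the order of levels. Depth limits Gpx3 and Gpx7 most, with as few as 14 and 22 reads in a library.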
